A study of Mus musculus with 10 samples.

Results

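The claudins described here are 10 tight junction genes, Cldn1, Cldn2, Cldn3, Cldn4, Cldn7, Cldn8, Cldn10, Cldn12, Cldn16 and Cldn19, taken by gene symbol from the 55359 genes of the table and ordered by the nephron segment each is known for. Kidney RNA of male mice was sequenced in 10 libraries, 5 after sham surgery (Sham) and 5 after 30 min of kidney ischaemia and 24 h of reperfusion (ischaemia-reperfusion injury, IRI). The series concerns dietary methionine deprivation, but the labels give no diet, strain, age or genotype for these libraries, do not say whether 1 or both kidneys were clamped, and give no interval after sham surgery. Nor do they say that the libraries are from separate mice, and the p-values below cover the spread among libraries, which may be technical.

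Library totals lay between 13147899 and 18603272 counts. Pairs of libraries correlated at 0.958 to 0.987 within a group and at 0.802 to 0.875 across groups (log2 CPM, Pearson's r across genes). Levels are given as FPKM, counts scaled by exonic length and by library total, and so can be set side by side between genes. A pair of libraries stood apart. Sham replicate 3 had the highest summed FPKM of 9 urothelial markers (118, against 1.02 to 37.1 in the other sham libraries) and of 12 principal cell markers (605, against 282 to 345). IRI replicate 1 held 2.31% of its counts in mitochondrial rRNA (0.214% to 0.450% in the other IRI libraries) and kept the highest summed FPKM of 14 proximal tubule markers in its group (2310, against 433 to 1040). Results that turn on either library are given with and without it. No member of the 11 cell type lists was under 0.1 FPKM in every library, a low bar that does not by itself establish the labelled tissue.

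Claudins are membrane proteins that join neighbouring epithelial cells at the tight junction and set which ions and how much water pass between the cells. Their mix changes along the nephron. Claudin-2 forms a cation and water pore in the leaky proximal tubule, claudin-10 forms anion or sodium pores depending on its splice variant, claudin-16 and claudin-19 together carry calcium and magnesium reabsorption in the thick ascending limb, and claudins 3, 4, 7 and 8 seal the tight distal nephron and collecting duct, where claudin-4 and claudin-8 are tied to chloride passage. Claudin-1 marks the parietal epithelium of Bowman's capsule, and claudin-12 is found in the proximal tubule.

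The 10 claudins did not move in 1 direction. Cldn4, Cldn7, Cldn1, Cldn3 and Cldn16 were higher after IRI, Cldn10, Cldn2 and Cldn8 were lower, and Cldn12 and Cldn19 did not pass the test (edgeR quasi-likelihood test, adjusted p under 0.05 over 13324 genes, n = 5 each). All 10 claudins had at least 1 FPKM in 5 or more libraries and were tested. Thus 8 of 10 were called, where 66.9% of all tested genes were called, 34.5% higher and 32.4% lower, so the share called is near the background. FPKM of the 2 groups did not overlap for 7 of the 10 (5 with IRI higher, 2 with IRI lower), against 55.3% of all genes (36.7% and 18.6%). The median log2 fold change of the 10 was 0.23, beside 0.05 over all tested genes. With library totals in place of TMM factors the median of all genes moved to 0.30, the share of calls that were higher moved from 51.6% to 66.7%, and 5 claudins were higher and 2 lower, where 71.0% of all genes were called, 47.4% higher and 23.6% lower.

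**Figure D1:**
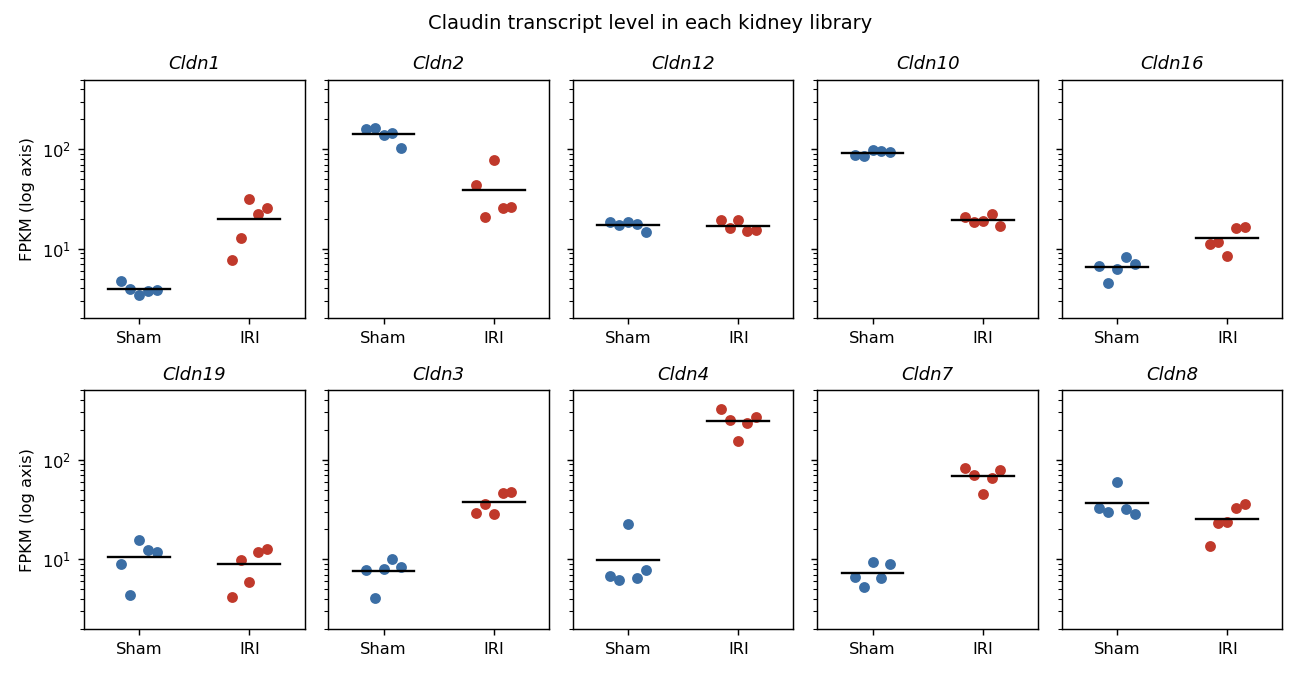
FPKM (log axis) of each of the 10 claudins in the 5 sham (blue) and 5 IRI (red) libraries, 1 point per library in replicate order with the group mean as a bar. The groups do not overlap for Cldn1, Cldn2, Cldn10, Cldn16, Cldn3, Cldn4 and Cldn7, and the sham point of Cldn4 that lies apart is replicate 3 at 22.6 FPKM.

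The promoter windows of the claudins that moved furthest in each direction, Cldn4 and Cldn7 upward and Cldn10 and Cldn2 downward, are shown to set their sequences side by side. RefSeq entries (build GRCm38.p6, whereas the count table uses GRCm39) were found for 9 of the 10 claudins, and each window is the 250 bases before an annotated start, 5′ to 3′ on the gene's strand. The windows are chr5:134946935-134947184 on the minus strand for Cldn4, and on the plus strand chr11:69965171-69965420 for Cldn7 (the second of 2 entries), chrX:139800558-139800807 for Cldn2, and chr14:118787621-118787870 and chr14:118854700-118854949 for the 2 entries of Cldn10. Capitals mark matches to the motifs searched, and windows without capitals had none.
Cldn4: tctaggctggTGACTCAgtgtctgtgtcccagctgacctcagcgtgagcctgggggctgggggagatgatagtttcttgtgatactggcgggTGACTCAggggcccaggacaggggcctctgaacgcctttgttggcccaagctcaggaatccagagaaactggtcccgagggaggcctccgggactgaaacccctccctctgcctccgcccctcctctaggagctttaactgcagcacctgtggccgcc
Cldn7: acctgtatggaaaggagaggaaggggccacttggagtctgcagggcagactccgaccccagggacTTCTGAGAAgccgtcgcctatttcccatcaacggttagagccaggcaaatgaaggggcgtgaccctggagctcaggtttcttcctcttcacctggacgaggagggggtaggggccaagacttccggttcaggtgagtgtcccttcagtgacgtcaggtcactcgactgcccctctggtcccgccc
Cldn2: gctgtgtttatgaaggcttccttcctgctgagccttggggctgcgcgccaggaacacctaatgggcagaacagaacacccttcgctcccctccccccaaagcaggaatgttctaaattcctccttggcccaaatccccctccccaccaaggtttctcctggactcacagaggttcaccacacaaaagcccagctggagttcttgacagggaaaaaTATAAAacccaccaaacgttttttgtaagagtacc
Cldn10 window 1: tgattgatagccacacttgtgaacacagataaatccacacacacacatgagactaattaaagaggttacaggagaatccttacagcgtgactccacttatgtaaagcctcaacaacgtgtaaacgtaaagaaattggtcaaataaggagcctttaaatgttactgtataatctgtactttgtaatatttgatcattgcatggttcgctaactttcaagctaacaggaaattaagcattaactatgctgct
Cldn10 window 2: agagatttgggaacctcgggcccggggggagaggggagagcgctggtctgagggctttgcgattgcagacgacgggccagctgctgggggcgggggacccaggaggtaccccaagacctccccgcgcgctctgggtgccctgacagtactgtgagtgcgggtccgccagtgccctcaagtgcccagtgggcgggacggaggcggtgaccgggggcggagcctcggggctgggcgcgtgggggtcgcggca

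Both matches in the Cldn4 window were to the AP-1 motif TGANTCA, beginning 240 and 158 bases before the start, a motif held by 6.75% of 32851 mouse promoter windows of that length. The match in Cldn7 was to the STAT3-type motif TTCNNNGAA (7.02% of windows), 185 bases before the start of the second entry. The first Cldn7 entry, not shown, had no match, and 2 of the 3 windows of Cldn12, which was not called, held the same motif. The match in Cldn2 was to the TATA box TATAAA (12.4%), 35 bases before it. Both Cldn10 windows lacked every motif searched. The motifs also included the grainyhead motif AACCNGTT (1.79%), an HNF1 motif (0.371%) and an NF-kB motif (1.41%), which matched no claudin window. All were searched on both strands, no matches overlapped, and the list was drawn up after the Cldn4 window had been seen. A match describes letters in a window, and binding was not measured.

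Claudin-1, the parietal epithelial claudin, was the least abundant of the 10 in sham kidneys. Cldn1 (ENSMUSG00000022512, chromosome 16, 26175392 to 26190591, minus strand, GRCm39) measured 4.75, 3.93, 3.45, 3.74 and 3.83 FPKM in sham replicates 1 to 5 and 7.75, 12.95, 31.3, 22.2 and 25.9 FPKM in IRI replicates 1 to 5. Every IRI library exceeded every sham library, and the IRI values spread widely, with replicate 1 at the bottom and replicate 3 at the top. The fold change was 4.21 (log2 2.07 ± 0.30 SE, adjusted p = 6.21e-05). Podocyte markers, the other epithelial cells of the glomerulus, moved with it: 6 of 9 were higher and 0 lower, and their summed FPKM was 67.8 to 115 in sham and 171 to 210 in IRI. Their part in the Cldn1 result was not tested, and the order of the IRI libraries differed, since replicate 1 had the lowest Cldn1 and the highest podocyte sum.

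In the proximal tubule, the leading claudin of the sham kidney fell. Cldn2 (ENSMUSG00000047230, X chromosome, 138701577 to 138712135, plus strand) measured 158, 163, 139, 145 and 103 FPKM in sham replicates 1 to 5 and 43.7, 20.9, 78.0, 25.4 and 26.0 FPKM in IRI replicates 1 to 5. The highest IRI library, replicate 3, stayed below the lowest sham library, and the other 4 IRI libraries lay well under it. Cldn2 was 4.31-fold lower (log2 fold change -2.11 ± 0.34 SE, adjusted p = 0.000165), and without IRI replicate 3 the log2 fold change was -2.52. Bulk RNA does not tell fewer proximal tubule cells from less Cldn2 RNA per cell. All 14 proximal tubule markers tested were lower (median log2 fold change -2.58), among them Miox, an enzyme of inositol breakdown, at -2.44 ± 0.58 (adjusted p = 0.00267) and the phosphate transporter Slc34a1 at -2.74 ± 0.54 (adjusted p = 0.000749), and their summed FPKM was 4930 to 6140 in sham and 433 to 2310 in IRI.

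Cldn10, whose splice variants serve the proximal tubule and the thick ascending limb, changed more evenly. Cldn10 (ENSMUSG00000022132, chromosome 14, 119025320 to 119112901, plus strand) measured 87.2, 86.5, 98.8, 96.5 and 92.8 FPKM in sham and 21.0, 18.5, 18.8, 22.3 and 17.0 FPKM in IRI, replicates 1 to 5 in order. Both groups were narrow and far apart. It was 5.61-fold lower (log2 -2.49 ± 0.11 SE, adjusted p = 1.58e-08), the smallest standard error among the 10. Counts per gene do not separate the variant with anion selectivity from that with sodium selectivity, so the share of each segment in this loss of RNA cannot be told apart.

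The remaining proximal claudin stayed near its sham level. Cldn12 (ENSMUSG00000046798, chromosome 5, 5539537 to 5564958, minus strand), linked to calcium passage, measured 18.5, 17.2, 18.7, 17.9 and 14.8 FPKM in sham and 19.4, 16.3, 19.3, 15.0 and 15.5 FPKM in IRI. The groups overlapped across nearly their whole range. The log2 fold change was -0.27 ± 0.12 SE with a 95% interval of -0.52 to -0.02 (adjusted p = 0.0575), so a fall of more than that lower bound was outside the interval. This call depended on the setting: it passed with DESeq2 (-0.29, adjusted p = 0.0416), with DESeq2's size factors in edgeR (adjusted p = 0.0429) and without IRI replicate 1 (-0.36, adjusted p = 0.011), whereas library totals gave -0.03 (adjusted p = 0.83).

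The paired claudins of the thick ascending limb, claudin-16 and claudin-19, parted. Cldn16 (ENSMUSG00000038148, chromosome 16, 26281885 to 26301515, plus strand) measured 6.71, 4.49, 6.29, 8.27 and 6.94 FPKM in sham and 11.3, 11.7, 8.42, 16.3 and 16.7 FPKM in IRI. The lowest IRI value, replicate 3, was just above the highest sham value. Cldn16 was 1.65-fold higher (log2 0.73 ± 0.20 SE, adjusted p = 0.00697). It lies 91.3 kb from Cldn1 on chromosome 16, on the opposite strand.

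Cldn19 (ENSMUSG00000066058, chromosome 4, 119112611 to 119119635, plus strand) measured 8.97, 4.4, 15.5, 12.5 and 11.96 FPKM in sham and 4.20, 9.92, 5.95, 12 and 12.8 FPKM in IRI. Each group ranged about as widely as the other and they overlapped almost completely. The log2 fold change was -0.51 ± 0.33 SE with a 95% interval of -1.22 to 0.20 (adjusted p = 0.182). Without sham replicate 2, its lowest sham library, the value was -0.68 (adjusted p = 0.0499), and without sham replicate 3, its highest, it was -0.33.

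Markers of the thick ascending limb did not move as a block either. Of 10 listed, 9 were tested, with 3 higher and 6 lower. The urinary glycoprotein gene Umod (log2 0.79 ± 0.24, adjusted p = 0.0124) and Mal (1.21 ± 0.22, adjusted p = 0.000399) rose, while Slc12a1, the sodium, potassium and chloride cotransporter of this segment, fell (-1.79 ± 0.31, adjusted p = 0.000264). The summed FPKM of the list was 855 to 1890 in sham and 1750 to 3070 in IRI, overlapping. Most of that sum was Umod (903 ± 295 FPKM in sham and 1867 ± 513 in IRI), so the sum was higher in IRI while the median log2 fold change of the list was -1.19. Sham replicate 2 had the lowest sum of this list as well as the lowest Cldn16 and Cldn19 of its group, and IRI replicates 4 and 5 had the highest sums and the highest Cldn16 and Cldn19. The part of segment content in the levels of both genes was not tested by these sums.

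Cldn4 and Cldn7, sealing claudins of the distal nephron and collecting duct, rose furthest of the claudins described. Cldn4 (ENSMUSG00000047501, chromosome 5, 134973973 to 134975788, minus strand) measured 6.74, 6.22, 22.6, 6.51 and 7.77 FPKM in sham and 326, 251, 156, 238 and 269 FPKM in IRI. All 5 IRI libraries were far above the highest sham library, replicate 3, which itself lay well above the other 4 sham libraries. Cldn4 was 21.2-fold higher (log2 4.41 ± 0.40 SE, adjusted p = 1.84e-06), above 99.6% of all tested genes in log2 fold change. Without sham replicate 3 the log2 fold change was 4.95.

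Cldn7 (ENSMUSG00000018569, chromosome 11, 69855605 to 69858711, plus strand) measured 6.70, 5.22, 9.41, 6.53 and 8.91 FPKM in sham and 83.7, 70.3, 45.3, 66.4 and 79.3 FPKM in IRI. The groups were far apart, and the 5 IRI libraries took the same order as in Cldn4, from replicate 1 at the top through 5, 2 and 4 to replicate 3. Cldn7 was 7.93-fold higher (log2 2.99 ± 0.20 SE, adjusted p = 2.79e-07).

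Cldn3 (ENSMUSG00000070473, chromosome 5, 135015068 to 135016326, plus strand) measured 7.75, 4.10, 8.03, 9.99 and 8.33 FPKM in sham and 29.1, 36.4, 28.4, 46.0 and 47.1 FPKM in IRI. Each IRI library was well above each sham library. Sham replicate 2 was lowest of its group and IRI replicates 4 and 5 highest, as for Cldn16 and Cldn19. Within groups, log2 CPM of Cldn3 ran with Cldn16 (r = 0.968 in sham and 0.936 in IRI) and Cldn19 (0.896 and 0.881). With Cldn4 it ran less closely (0.169 and 0.255). Cldn3 is set against principal cell markers below and was not set against thick ascending limb markers. Cldn3 was 4.11-fold higher (log2 2.04 ± 0.21 SE, adjusted p = 5.31e-06). Cldn3 and Cldn4 are neighbours, 39.3 kb apart on chromosome 5 and on opposite strands, and both rose.

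Claudin-8, the chloride pathway partner of claudin-4, went the other way. Cldn8 (ENSMUSG00000050520, chromosome 16, 88357716 to 88360071, minus strand) measured 33.2, 29.8, 59.8, 32.3 and 28.8 FPKM in sham and 13.8, 23.0, 23.6, 32.8 and 35.7 FPKM in IRI. Sham replicate 3 lay far above its group, IRI replicate 1 far below its own, and IRI replicates 4 and 5 were within the sham range. It was 1.71-fold lower (log2 -0.78 ± 0.24 SE, adjusted p = 0.0126), and -0.53 (adjusted p = 0.039) without sham replicate 3. The call was lost with library totals (-0.51, adjusted p = 0.0929) and with limma on log2(FPKM + 1) (-0.51, adjusted p = 0.096), so the call for Cldn8 depended on the scaling.

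Of 12 principal cell markers listed, 10 were tested, with 3 higher, 1 lower and a median log2 fold change of 0.36. Their summed FPKM was 282 to 605 in sham and 358 to 760 in IRI. The water channel Aqp2, their most abundant member, had a log2 fold change of 0.58 ± 0.36 (adjusted p = 0.173). Markers of the distal convoluted and connecting tubule were mostly lower, as was Cldn8: of 9 tested, 7 were lower and 1 higher (median -1.18 in log2 fold change). Their summed FPKM was 755 to 912 in sham and 434 to 549 in IRI, with no overlap. Most of that sum was Fxyd2 (608 ± 48.6 FPKM in sham and 377 ± 49.7 in IRI). Sham replicate 3 had the highest Cldn8 and the lowest sum of its group, while IRI replicate 1 had the lowest of both. The part of these markers in the Cldn8 result was not tested. Sham replicate 3, which held the highest Cldn4 and Cldn8 of its group, also held the highest sums of principal cell, urothelial and thin limb markers (334 for the last, against 36.6 to 152), and the part of its tissue makeup in those values was not tested. The urothelium also makes claudin-4. Of 6 urothelial markers tested 0 were called, with no filter 1 of 9 was higher and 2 were lower, and their summed FPKM was 1.02 to 118 in sham and 13.4 to 29.3 in IRI. Their part in the Cldn4 result was not tested. Injured tubule markers were higher, as were Cldn1, Cldn3, Cldn4 and Cldn7: all 12 were called higher, where 34.5% of all tested genes were. Their summed FPKM was 460 to 566 in sham and 18700 to 29600 in IRI. Most of that sum was Spp1 (346 ± 26.6 FPKM in sham and 19120 ± 4605 in IRI). The part of injured tubule cells in the results of these claudins was not tested.

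**Figure D2:**
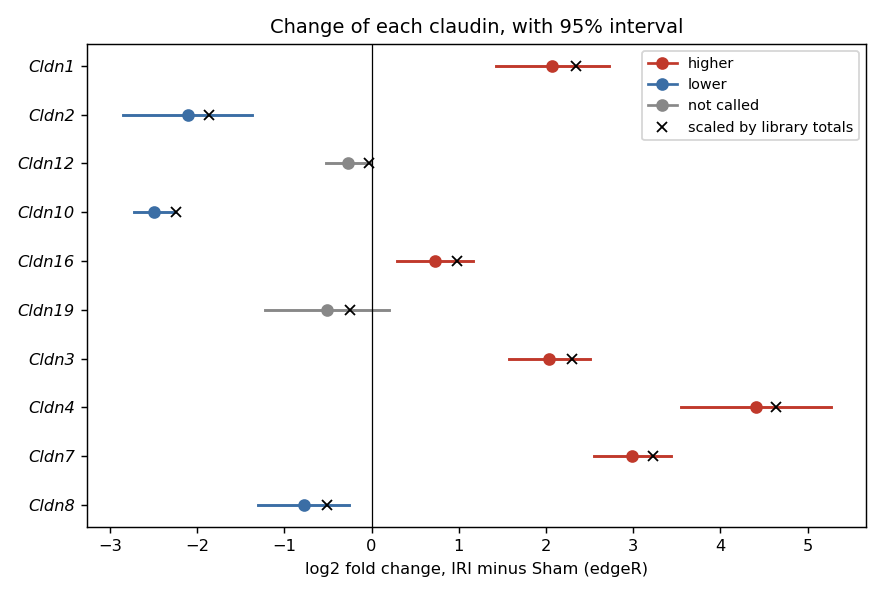
Log2 fold change of each claudin, IRI minus Sham, from edgeR with TMM factors (points, 95% intervals as lines, red higher, blue lower, grey not called) and the value scaled by library totals (crosses). Cldn4 lies furthest right at 4.41 and Cldn10 furthest left at -2.49, the crosses of all 10 lie to the right of their points, and the cross of Cldn12 is close to 0 at -0.03.

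Ratios of 2 claudins within a library do not depend on how libraries are scaled. For 8 pairs the log2 ratio of FPKM (0.1 added to each) was compared by a two-sided exact permutation test over 252 assignments of the libraries, whose smallest p is 0.00794. In 7 pairs the groups did not overlap and the exact test gave that smallest p (adjusted p = 0.00907 over the 8). The pairs were chosen with the genes' own results known. For Cldn4 to Cldn2 and Cldn10 to Cldn16 the groups of both genes were already apart in opposite directions, which fixes the separation. For Cldn4 to Cldn8, Cldn7 to Cldn8 and Cldn2 to Cldn12 the ranges of the single genes also left no room for an overlap. All the ratios are therefore a description. The ratio of Cldn4 to Cldn2, a sealing against a leak claudin, was 0.0387 to 0.163 in sham and 2.0 to 12 in IRI, a change of 113-fold. Cldn4 to Cldn8 went from 0.204 to 0.378 in sham to 6.60 to 23.5 in IRI, a change of 39.9-fold. Cldn7 to Cldn8 went from 0.159 to 0.311 to 1.92 to 6.04, a change of 13.4-fold. In each of these ratios the denominator led in sham and the numerator led in IRI.

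Within segments, Cldn16 to Cldn19 was 0.41 to 1.02 in sham and 1.18 to 2.64 in IRI, a log2 difference of 1.2, or 0.996 without IRI replicate 1, the library with the highest ratio. Cldn10 to Cldn16 was 11.5 to 18.9 in sham and 1.02 to 2.22 in IRI, a log2 difference of -3.19. Counts per gene pool the Cldn10 variants of the proximal tubule and thick ascending limb, so ratios with Cldn10 are not within a single segment. Cldn3 to Cldn4 was 0.359 to 1.53 in sham and 0.0893 to 0.194 in IRI, a log2 difference of -2.49, so the neighbouring genes rose by unequal amounts. Cldn2 to Cldn12 was 6.97 to 9.45 in sham and 1.28 to 4.03 in IRI, a log2 difference of -2.0. The exception was Cldn2 to Cldn10, at 1.11 to 1.88 in sham and 1.13 to 4.13 in IRI, a log2 difference of 0.21 (exact permutation p = 0.651) that turned to -0.09 without IRI replicate 3.

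Each claudin was then set against markers of the segment it is known for, as its log2(FPKM + 0.1) minus the mean of the markers in the same library, for 10 pairs with exact permutation tests adjusted over the 10. These pairs too were chosen with earlier results known, so the comparisons are a description. The mean of the proximal tubule markers changed by -2.67 on this scale, that of the thick ascending limb markers by -0.63 and that of the principal cell markers by 0.47. All listed markers weighed alike in these means, including some thick ascending limb and principal cell markers too low to be tested. Cldn2 lay at -0.761 to -0.352 relative to proximal markers in sham and at -0.801 to 1.02 in IRI, and the groups overlapped (difference 0.65, adjusted p = 0.176). Cldn10 relative to proximal markers lay at -1.38 to -0.843 in sham and at -1.85 to 0.42 in IRI (difference 0.43, adjusted p = 0.325). For both genes the difference was smaller than the spread of the IRI libraries. Without IRI replicate 1 both differences passed (0.89 and 0.73, adjusted p = 0.0397 for each).

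Cldn12 kept near its level while the proximal markers fell. Relative to them it lay at -3.70 to -3.24 in sham and -1.97 to -0.149 in IRI (difference 2.64, exact permutation, adjusted p = 0.0113). On FPKM, which is scaled by library totals, Cldn12 itself changed by -0.03 and the marker mean by -2.67. With TMM factors in edgeR the log2 fold change of Cldn12 was -0.27. The marker means of the groups were further apart than the whole range of Cldn12, which fixes this separation. Relative to thick ascending limb markers, Cldn16 went from -2.78 to -2.04 in sham to -0.954 to -0.393 in IRI (difference 1.58, adjusted p = 0.0113). Cldn10 against the same markers went the other way (difference -1.61, adjusted p = 0.0113), but with the median in place of the mean over markers the difference was -0.51 (adjusted p = 0.0893). The groups of Cldn10 alone were already further apart than the mean of these markers ranged over the libraries. Cldn19 differed by 0.38 (adjusted p = 0.119), by 1.49 with the median over markers (adjusted p = 0.0113) and by 0.51 without IRI replicate 1 (adjusted p = 0.0198).

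The collecting duct claudins moved away from the principal cell markers in both directions. Cldn4 lay at -0.511 to 0.46 relative to them in sham and at 3.58 to 4.93 in IRI (difference 4.32). Cldn7 differed by 2.74 and Cldn3 by 1.83, and Cldn8 by -1.0, from 1.51 to 2.12 in sham to 0.37 to 1.06 in IRI. The exact permutation test gave adjusted p = 0.0113 for each of these 4. For Cldn4, Cldn7 and Cldn3 the groups of the gene alone were already further apart than the marker mean ranged over the libraries. That fixes their separation here. Library scaling does not enter this comparison. On FPKM scaled by library totals, the difference for Cldn8 was made up of -0.53 from Cldn8 itself and 0.47 from the higher mean of the markers. Its value in sham replicate 3 was 1.86, inside the group.

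**Figure D3:**
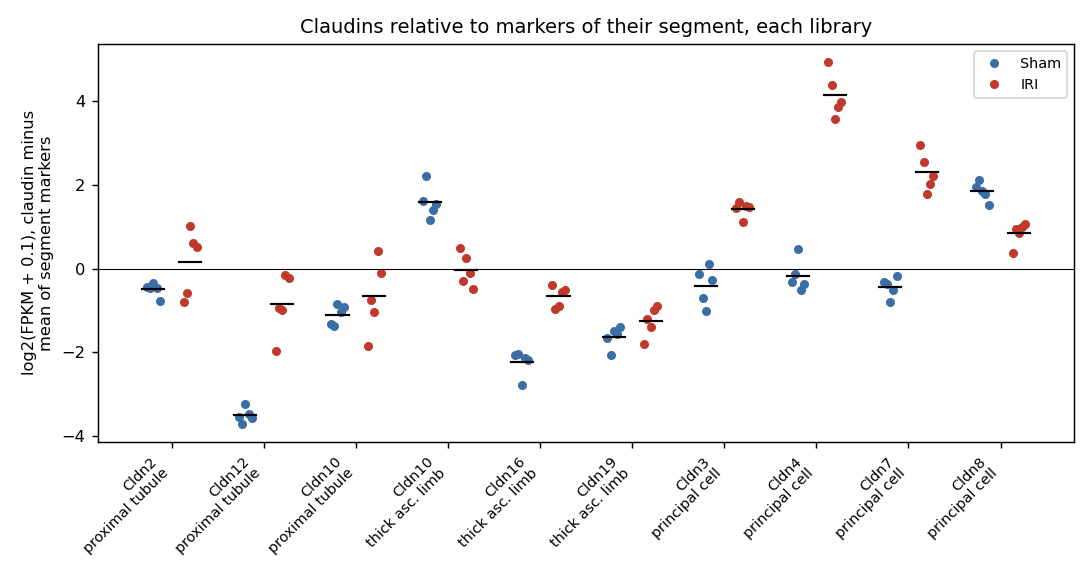
Log2(FPKM + 0.1) of each claudin minus the mean of its segment markers in each sham (blue) and IRI (red) library, with group means as bars. The groups are apart for Cldn12, Cldn10 against thick ascending limb, Cldn16, Cldn3, Cldn4, Cldn7 and Cldn8, and overlap for Cldn2 and Cldn10 against proximal markers and for Cldn19.

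The order of the 10 transcripts changed after IRI. In sham the levels ran from Cldn2 (142 ± 23.6 FPKM, SD, n = 5) through Cldn10 (92.4 ± 5.47) and Cldn8 (36.8 ± 13), whose ranges overlapped with no other member, to Cldn12 (17.4 ± 1.6), Cldn19, Cldn4, Cldn3, Cldn7, Cldn16 and Cldn1, where each range overlapped with that of its neighbour. In IRI Cldn4 led (248 ± 61.5), apart from all others, followed by Cldn7 (69.0 ± 14.9), Cldn2, Cldn3, Cldn8, Cldn1, Cldn10, Cldn12, Cldn16 and Cldn19, each overlapping with the next. Summed FPKM of the 10 was 334 ± 33.7 in sham and 498 ± 58.4 in IRI. Cldn2 and Cldn10 together made up 70.2% ± 5.39 of the sum in sham and 12.1% ± 6.40 in IRI. Cldn3, Cldn4 and Cldn7 made up 7.40% ± 2.22 in sham and 70.6% ± 9.02 in IRI, with Cldn4 alone at 49.3% ± 7.65.

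**Figure D4:**
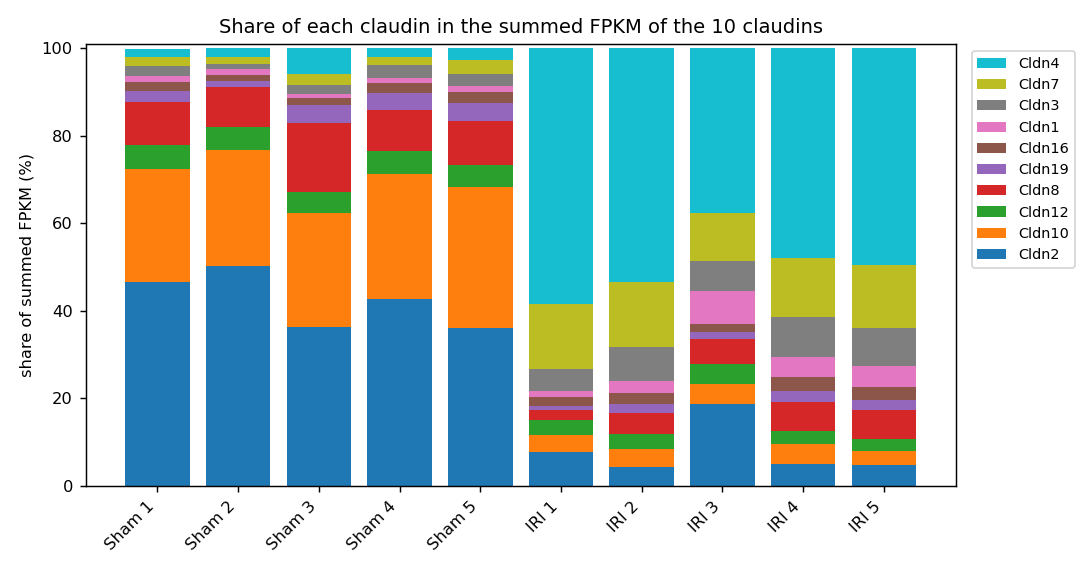
Share of each claudin in the summed FPKM of the 10, in percent, 1 bar per library. Cldn2 and Cldn10 fill 62.3% to 76.8% of the sham bars and 7.89% to 23.3% of the IRI bars, and IRI replicate 3 keeps the largest Cldn2 share of its group, 18.8%.

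Few other claudins were measurable. Of 25 further claudin genes listed, 22 were in the table and 3 passed the filter. All 3 were called higher, where 34.5% of all tested genes were, but Cldn6 passed the filter mainly through its IRI libraries, so this count is no support for a direction. Cldn5, the endothelial claudin, was 4.85 to 8.43 FPKM in sham and 10.4 to 17.4 FPKM in IRI (log2 0.73 ± 0.21 SE, adjusted p = 0.00734). Of 10 endothelial markers, 6 were called higher and 1 lower, where 34.5% of all tested genes were higher and 32.4% lower. Their summed FPKM was 109 to 160 in sham and 141 to 231 in IRI, overlapping. The part of endothelial cells in the Cldn5 result was not tested. Cldn6, known from embryonic epithelia, was 0.18 to 1.21 FPKM in sham and 1.43 to 2.90 FPKM in IRI (1.87 ± 0.41, adjusted p = 0.00148). Cldn6 and Cldn9 lie 137 bases apart. Cldn15 was 4.02 to 8.75 FPKM in sham and 6.74 to 15.2 FPKM in IRI, overlapping (0.58 ± 0.22, adjusted p = 0.0362), and lost its call when sham replicate 1, 2 or 4 or IRI replicate 2, 3 or 4 was left out (adjusted p 0.0581 to 0.0983).

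With no filter on low values, 14 of these claudins had counts, of which 5 were higher and 1 lower, where 37.4% of 30454 genes were called, 19.3% higher and 18.0% lower. The 3 added calls are named here after their values were seen. Cldn14, which restrains claudin-16 and claudin-19 in the thick ascending limb, was 0.00 to 0.14 FPKM in sham and 0.00, 0.57, 1.33, 0.61 and 1.00 FPKM in IRI replicates 1 to 5 (log2 3.15 ± 0.76 SE, adjusted p = 0.00249). It was listed at 0 in IRI replicate 1 and above all sham libraries in the other 4. Cldn23 was 0.04 to 0.82 FPKM in sham and 0.59 to 2.19 FPKM in IRI (2.05 ± 0.57, adjusted p = 0.00733). Cldn18 was 0.31 to 0.44 FPKM in sham and 0.01 to 0.14 FPKM in IRI (-3.16 ± 0.50, adjusted p = 3.37e-05).

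Among other membrane proteins of the tight junction, 7 of 11 tested were higher, 2 lower and 2 uncalled, where 34.5% of all genes were higher and 32.4% lower, with a median log2 fold change of 0.64 beside 0.05 over all genes. The angulins, which recruit tricellulin to the corners between cells, did not move together: Ildr1 rose from 6.17 ± 1.42 to 16.7 ± 3.80 FPKM (log2 1.18 ± 0.18 SE, adjusted p = 0.000106) and Lsr from 11.04 ± 1.19 to 22.9 ± 1.32 FPKM (0.81 ± 0.09, adjusted p = 1.28e-05), while Ildr2 fell from 11.04 ± 2.24 to 7.18 ± 2.02 FPKM (-0.87 ± 0.19, adjusted p = 0.00158). Marveld2, which encodes tricellulin, rose from 5.10 ± 0.76 to 12.2 ± 2.16 FPKM (1.00 ± 0.13, adjusted p = 2.42e-05). Cxadr, a junctional adhesion protein that is also a virus receptor, rose by 0.94 ± 0.13 (adjusted p = 6.06e-05).

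Among cytoplasmic plaque proteins, 10 of 20 tested were higher, 4 lower and 6 uncalled, with a median log2 fold change of 0.34. The share called is near the 66.9% of all genes. With library totals the counts were 13 higher and 2 lower, where 47.4% of all genes were higher and 23.6% lower. Ybx3, a Y-box factor that binds the scaffold ZO-1, rose from 17.9 ± 2.50 to 50.7 ± 3.98 FPKM (log2 1.25 ± 0.10 SE, adjusted p = 7.49e-07). The angiomotin-like genes Amotl1 (1.25 ± 0.17, adjusted p = 3.61e-05) and Amotl2 (1.08 ± 0.22, adjusted p = 0.000905) rose as well. Prkcz, an atypical protein kinase C of the polarity complex, fell from 13.7 ± 0.67 to 4.73 ± 0.93 FPKM (-1.77 ± 0.14, adjusted p = 9.09e-07).

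For each claudin, the tested genes whose log2 CPM ran most like it over the 10 libraries were listed by Pearson's r, as a description in which the group difference is shared by most genes. Cldn4 was followed most closely by Runx1 and Csnk1e (r = 0.996 each), Cldn7 by Cd93 (0.998) and Map4k4 (0.995), and Cldn3 by Serp2 and Ptk7 (0.992 each). Cldn10 was followed by Tm2d2 and Bnip3 (0.995 each) and Cldn2 by Sfxn1 (0.994) and Ccdc91 (0.993). Cldn1 was followed by Loxl2 (0.985) and the ribosomal pseudogene Rpl14-ps1 (0.98), whose reads can be shared with its parent gene. For the claudins that changed least the likest genes ran less closely: Cldn8 with Cdkl1 (0.976) and Ppargc1a (0.965), Cldn16 with Zfp358 (0.952) and Fam204a (0.935), Cldn12 with Atp6v1b2 (0.941) and Mttp (0.937), and Cldn19 with Pou3f3 (0.941) and Egfl6 (0.939).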

How the data were processed

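Poly(A) RNA of mouse kidney was sequenced by the authors in 10 libraries, and 1 table was deposited. For each gene the deposited table holds whole counts and FPKM in every library, and an exonic length in bases. Dividing counts by that length and by the library total gave the deposited FPKM for 100% of values, within 0.005 units or 0.1%. Per the submitters' processing notes, cutadapt 1.9.1, HISAT2 2.0.1, HTSeq 0.6.1 and build GRCm39 were used, in roles that are not stated. The strand setting of the counting is not stated there, but genes overlapping the claudins on the opposite strand held at most 6 counts. Symbols were found by identifier for 52083 of 55359 genes.

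Genes entered at 1 FPKM or more in any 5 libraries, and counts of these 13324 were tested with edgeR 4.0.16 (R 4.3.3; quasi-likelihood test, TMM factors, all 10 libraries), with Benjamini-Hochberg adjustment and calls at an adjusted p under 0.05. FPKM is scaled by library totals, so ratios of FPKM differ from fold changes. Each standard error is the absolute log2 fold change over the root of F. The test was tried on simulated data. Alternatives were DESeq2 1.42.0, limma 3.58.1, other scalings, filters, pseudocounts and a stricter threshold, a replicate block, and leaving out each library. Ratios and segment comparisons used exact permutation tests (Python 3.11.15). Depth was 13147899 to 18603272 counts, and libraries of a group differed by more than counting error (chi-square per degree of freedom 8.76 to 106), so the spread between libraries sets the precision.

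Members, gene and marker lists and pairs were chosen with earlier results of these data known. Besides the claudins, the text names up to 5 called genes of largest change per tight junction list (mean of at least 1 FPKM), up to 2 called genes per marker list and the 2 genes most like each claudin; Slc12a1, Aqp2 and the claudins called only without a filter are named outside this rule. For 1 gene chosen by this rule, values are not reported here.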

Additional observations from a re-analysis of the deposited data

Results flagged for a closer look

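In 6 of 56 groups of 5 values checked, the highest or lowest library lay far from the other 4 relative to the range of the group. Chance flags about 1 in 20 such groups. Cldn4 was 22.6 FPKM in sham replicate 3 and 6.22 to 7.77 FPKM in the other sham libraries. Cldn8 was 59.8 FPKM in the same library, against 28.8 to 33.2 FPKM, and its Cldn16 level relative to thick ascending limb markers was -2.78, against -2.17 to -2.04 in the others. That library also had the highest Cldn19 and Cldn7 of the sham group. In IRI replicate 1 the log2 ratio of Cldn16 to Cldn19 was 1.40, where the other IRI libraries lay at 0.241 to 0.494. In IRI replicate 3 the log2 ratio of Cldn4 to Cldn2 was 1.00, against 2.90 to 3.58, the library with the lowest Cldn4 and the highest Cldn2 after IRI. In sham replicate 5 the level of Cldn2 relative to proximal tubule markers was -0.761, against -0.461 to -0.352.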

How the results depend on the processing

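Every setting tried kept 5 claudins higher. The number lower was 2 to 4: 2 with library totals, limma or an adjusted p under 0.01, where Cldn8 was lost, and 4 where Cldn12 or Cldn19 was gained. The replicate block gave 4 lower (Cldn12 -0.28, adjusted p = 0.0422) and 4221 higher and 4097 lower of all genes, against 4599 and 4320 without it. Same-numbered libraries did not deviate together (correlations -0.235 to 0.0482, and 0 of 5 were closest to their own number). No pairing by number was seen, though such correlations cannot exclude it. Ratios and segment comparisons were not fitted with a block. With no filter, further claudins gave 5 higher and 1 lower. Plaque proteins gave 2 lower with library totals and 2 with limma on log2(FPKM + 1). With the median over markers, Cldn10 against thick ascending limb gave -0.506 (adjusted p = 0.0893) and Cldn19 gave 1.49 (adjusted p = 0.0113). With markers of at least 1 FPKM, Cldn19 gave 0.551 (adjusted p = 0.0397). Leaving out each library in turn gave 0.431 to 0.885 for Cldn2 and 0.162 to 0.731 for Cldn10 against proximal markers, and 0.268 to 0.513 for Cldn19, each passing only without IRI replicate 1. Leaving out both sham replicate 3 and IRI replicate 1, an alternative chosen after seeing the data, gave 0.547 for Cldn19 (adjusted p = 0.0357), 0.921 for Cldn2 and 0.794 for Cldn10 against the same markers, and log2 fold changes of 4.74 for Cldn4 and -0.43 for Cldn8. The cause of these shifts was not tested. Depth does not limit the 10 claudins, but most further claudins lay near 0 FPKM.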

Other observations

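Sham replicate 3 also stood apart in a claudin below the filter: Cldn11 was 3.29 FPKM there and 0.00 to 0.26 FPKM in the other sham libraries, with 0.04 to 0.50 FPKM in IRI. The urothelial marker Psca was 59.9 FPKM in that library and 0.19 to 10.1 FPKM in the other 4. Both genes are named after their values were seen.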
